A study of Mus musculus with 6 samples.

Results

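Cells with transcripts of osteoclasts, the large cells that dissolve bone matrix, were found in Smarcb1-deficient mouse rhabdoid tumors (RT), almost all of them in 2 of 6 tumors. The cells were chosen by a rule on 4 genes. A cell counted as an osteoclast when it held at least 5 unique molecular identifiers (UMIs, counts of single captured transcripts) of Ctsk and at least 1 UMI of at least 2 of the 3 genes Atp6v0d2, Ocstamp and Dcstamp, called fusion genes below. Cells with fewer than 200 genes, or with over 25% of their UMIs from mitochondrial genes, were left out first. The rule took 1929 of the 22163 cells kept. Cell size, number of nuclei and bone resorption were not measured, so the name rests on transcripts. Mature cells and precursors are not told apart by it. Single-cell RNA sequencing had been done on 3 spinal RT of the MYC subgroup (MYC spinal, mice Rosini1172, Rosini1177 and Rosini1232) and 3 extracranial RT (eRT, mice Rosini1148 from a gland, Soxertini568_maxilar from the jaw and Soxertini593 from the shoulder), in a study of the heterogeneity of these tumors and the cells they arise from. In all 6 mice a floxed Smarcb1 gene was removed by a tamoxifen-inducible Cre after a single dose of 50 mg/kg given to the pregnant dam at embryonic day 6.5. The 3 MYC spinal tumors and eRT Rosini1148 came from the Rosa26-cre strain, in which Cre is driven by a ubiquitous promoter, and eRT Soxertini568_maxilar and Soxertini593 from the Sox2-cre strain, in which it is driven in Sox2-positive cells. By their labels the mice were 19, 26 and 17 weeks old (MYC spinal Rosini1172, Rosini1177 and Rosini1232) and 17, 29 and 22 weeks old (eRT Rosini1148, Soxertini568_maxilar and Soxertini593). Plots give each mouse by the number in its name. Each tumor came from a single mouse and gave 1 library, and no tumor-free tissue was among the samples.

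Osteoclasts form when precursors of the monocyte and macrophage lineage receive M-CSF through the receptor Csf1r and RANKL, the product of Tnfsf11, through the receptor RANK, the product of Tnfrsf11a. The transcription factor Nfatc1 then turns on the genes for cell fusion, acid secretion and proteolysis. A mature cell seals itself to bone with integrin-rich actin structures, pumps protons through a vacuolar ATPase into the space below and secretes cathepsin K, which cleaves collagen. Such cells are known from bone and from giant cell-rich lesions, including some soft tissue tumors.

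The 2 tumors that held almost all of the osteoclasts also had the most UMIs per cell, called depth below. MYC spinal Rosini1232 had a median of 3200 UMIs per kept cell and eRT Rosini1148 had 5211, while the medians of the other 4 tumors lay between 916 and 2288.5. Since the rule asks for several UMIs in 1 cell, it favors deep cells. Deposited cell names were running numbers without barcodes, so barcodes shared between libraries could not be counted. The search for doublets with Scrublet marked only 21 cells (0.0948%), too few for the method to be relied on, so none was taken out. Ctsk was also found in cells that should lack it: lymphocyte-gated cells held a Ctsk UMI in 24 of 87 cells (27.6%, median depth 1966 UMIs) of MYC spinal Rosini1232 and in 8 of 20 cells (40.0%, median depth 1918.5 UMIs) of eRT Rosini1148. Of the 60 Ctsk UMIs in the gated cells of MYC spinal Rosini1232, 32 were in 1 cell. The part of free RNA and of doublets in them was not tested. These gated cells held at least 2 of the T cell genes Cd3d, Cd3e and Cd3g or of the B cell genes Cd79a, Cd79b and Ms4a1, with no C1q gene and no Csf1r.

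Osteoclasts were a major population in each of these 2 tumors, one of each subtype. MYC spinal Rosini1232 held 1414 of them among 6740 cells (21.0%, exact 95% binomial interval 20.0 to 22.0). eRT Rosini1148 held 512 among 2143 cells (23.9%, 22.1 to 25.8). eRT Soxertini593 held 3 among 4020 cells (0.0746%, 0.0154 to 0.218). None was found in MYC spinal Rosini1172 among 1469 cells, in MYC spinal Rosini1177 among 5749 cells or in eRT Soxertini568_maxilar among 2042 cells. A count of 0 still allows shares of up to 0.204%, 0.0522% and 0.147% in these 3 tumors, taking 3 cells as a one-sided limit. The two-sided intervals end at 0.251%, 0.0641% and 0.180%. Intervals and limits cover counting error only. With every cell thinned to 1000 UMIs and shallower cells left out (82 cells of MYC spinal Rosini1172, 3157 of Rosini1177, 456 of eRT Soxertini568_maxilar and 30 of Soxertini593), the shares became 5.96% in MYC spinal Rosini1232, 7.33% in eRT Rosini1148, 0.0251% in eRT Soxertini593 and 0 in the other 3 tumors. The contrast between the tumors thus remained at equal depth, with fewer cells passing the rule in each.

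**Figure D1:**
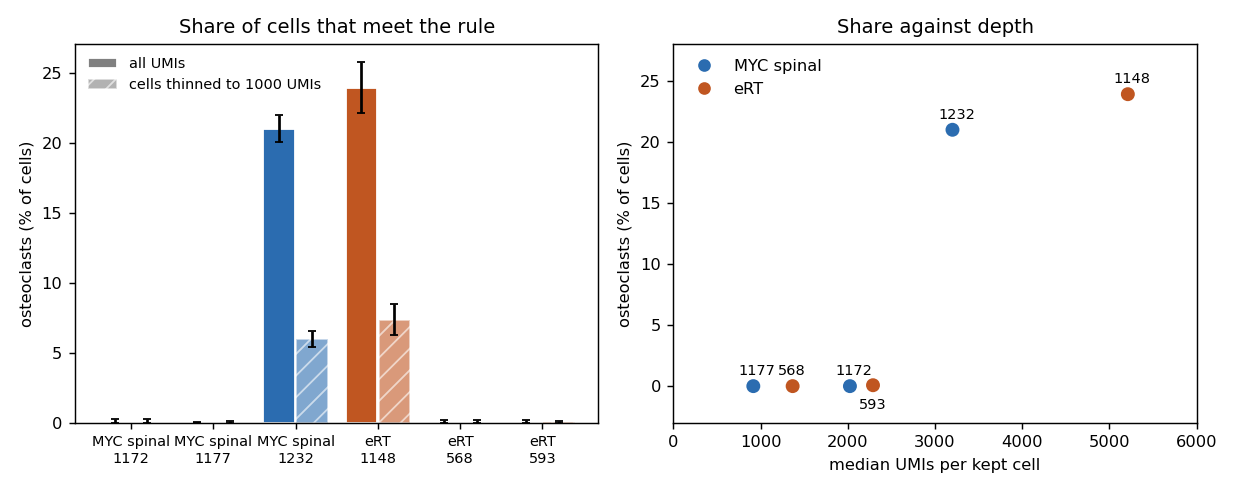
Left, the percentage of kept cells that meet the osteoclast rule in each tumor, with all UMIs (solid) and with cells thinned to 1000 UMIs (hatched); error bars are exact 95% binomial intervals, blue is MYC spinal and orange eRT. Right, the same percentage against the median UMIs per kept cell: only MYC spinal Rosini1232 (21.0%) and eRT Rosini1148 (23.9%) lie clearly above 0, and they are the 2 deepest tumors.

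The share did not separate the subtypes. The mean was 7.99% ± 13.8 (SD, n = 3) in eRT and 6.99% ± 12.1 (SD, n = 3) in MYC spinal tumors, a difference of 0.996 percentage points (exact two-sided permutation test, p = 0.7, smallest possible 0.1). The groups overlapped fully, with 1 rich tumor and 2 tumors at or near 0 in each. Without MYC spinal Rosini1172 or Rosini1177 the difference was -2.50 points, and without eRT Rosini1148 it was -6.96 points. Both rich tumors were Rosa26-cre tumors, while the 2 other Rosa26-cre tumors held none. By their labels both rich tumors came from mice 17 weeks old, and the remaining tumors from mice of 19 to 29 weeks. The part of strain and of age in the share was not tested.

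The genes of the rule describe the cells and were not tested. Ctsk encodes cathepsin K, Atp6v0d2 a subunit of the vacuolar ATPase that is needed for cell fusion, and Dcstamp and Ocstamp the membrane proteins that drive the fusion of precursors. Their genes lie at chr3:95499256-95509362 (Ctsk, plus strand), chr4:19876841-19922605 (Atp6v0d2, minus), chr15:39745930-39760938 (Dcstamp, plus) and chr2:165393760-165400405 (Ocstamp, minus) in GRCm38. In MYC spinal Rosini1232 an osteoclast held a median of 39 Ctsk UMIs (lowest 5, highest 196) and in eRT Rosini1148 a median of 90 (5 to 426). For levels, the UMIs of all cells of one kind in a tumor were added up and scaled by their total to CPM, the usual unit of UMIs relative to library size. Ctsk reached 8686 CPM in the osteoclasts of MYC spinal Rosini1232 and 13077 CPM in those of eRT Rosini1148, against 531 and 677 CPM in all other cells of the same tumors. In the 4 other tumors the remaining cells held 1.29 to 19.9 CPM. Atp6v0d2 reached 915 and 1165 CPM, Ocstamp 512 and 447 CPM, and Dcstamp 239 and 227 CPM in MYC spinal Rosini1232 and eRT Rosini1148. Atp6v0d2 was found in 97.6% and 98.8% of the osteoclasts, Ocstamp in 91.2% and 90.4% and Dcstamp in 61.9% and 69.1%. All 3 were found in 50.7% and 58.4%.

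Cells on either side of the rule held similar levels of Acp5, while C1qa was higher just outside it. In MYC spinal Rosini1232, 34 osteoclasts with 5 or 6 Ctsk UMIs held 5850 CPM of Acp5, and 47 cells just outside, with 3 or 4 Ctsk UMIs and at least 2 fusion genes, held 5702 CPM. In eRT Rosini1148, 10 such osteoclasts held 5656 CPM of Acp5 and 21 cells just outside held 5356 CPM. A further 318 cells of MYC spinal Rosini1232 and 85 of eRT Rosini1148 had enough Ctsk but only 1 fusion gene, and held 8355 and 7365 CPM of Acp5. C1qa stood at 25.7 CPM just inside and 167 CPM just outside in MYC spinal Rosini1232, and at 247 and 728 CPM in eRT Rosini1148. The macrophage gene Lyz2 and the class II gene H2-Aa did not follow C1qa in both tumors. In MYC spinal Rosini1232 they were higher just inside (Lyz2 1225 against 1112 CPM, H2-Aa 815 against 526 CPM). In eRT Rosini1148 they were lower just inside (1234 against 2028 CPM and 213 against 504 CPM). The comparison group of all other cells therefore includes cells close to osteoclasts.

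The 3 cells of eRT Soxertini593 held 177, 27 and 41 Ctsk UMIs, 169, 52 and 28 Acp5 UMIs and 33, 0 and 9 Mmp9 UMIs. Their depths were 5845, 5794 and 6284 UMIs, against a median of 2288 in the other cells of that tumor. They were too few for a test. In MYC spinal Rosini1177, 2 cells had at least 5 Ctsk UMIs, but neither held a fusion gene, and in eRT Soxertini568_maxilar, 47 cells held a fusion gene and none had 5 Ctsk UMIs.

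Promoter sequences are shown for Ctsk, which the rule used, and for Acp5, Slc9b2 and Oscar, which were far higher in the osteoclasts although the rule did not use them. Slc9b2 and Oscar were added after their values were seen. Each runs from 250 bases before to 50 after a transcription start in RefSeq (GRCm38.p6), in the direction of the gene. Capitals mark the motifs searched on both strands: TGANTCA (AP-1), GGAAA (NFAT core), GAGGAA (PU.1 core, which can overlap the NFAT core), CATGTG and CACGTG (E-boxes of MITF and TFE factors). The windows are chr3:95498960-95499259 (Ctsk, plus strand), chr9:22130549-22130848 (Acp5, minus, one of 3 annotated starts), chr3:135307450-135307749 (Slc9b2, plus) and chr7:3616108-3616407 (Oscar, minus).
Ctsk: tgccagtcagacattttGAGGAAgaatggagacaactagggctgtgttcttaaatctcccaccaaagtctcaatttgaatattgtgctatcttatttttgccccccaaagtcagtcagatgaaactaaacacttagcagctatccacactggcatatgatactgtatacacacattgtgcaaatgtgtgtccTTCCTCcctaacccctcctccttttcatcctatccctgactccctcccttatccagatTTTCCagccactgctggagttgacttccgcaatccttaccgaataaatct
Acp5: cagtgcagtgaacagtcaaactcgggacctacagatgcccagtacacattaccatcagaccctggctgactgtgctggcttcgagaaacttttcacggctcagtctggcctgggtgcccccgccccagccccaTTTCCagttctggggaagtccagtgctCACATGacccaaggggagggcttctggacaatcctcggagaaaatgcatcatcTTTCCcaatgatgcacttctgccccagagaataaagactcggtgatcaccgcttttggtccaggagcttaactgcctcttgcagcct
Slc9b2: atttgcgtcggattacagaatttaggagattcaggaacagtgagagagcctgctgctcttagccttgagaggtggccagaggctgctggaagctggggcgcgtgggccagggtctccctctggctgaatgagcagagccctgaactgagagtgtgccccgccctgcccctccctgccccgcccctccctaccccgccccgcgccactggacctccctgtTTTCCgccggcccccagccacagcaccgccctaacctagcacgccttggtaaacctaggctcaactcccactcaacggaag
Oscar: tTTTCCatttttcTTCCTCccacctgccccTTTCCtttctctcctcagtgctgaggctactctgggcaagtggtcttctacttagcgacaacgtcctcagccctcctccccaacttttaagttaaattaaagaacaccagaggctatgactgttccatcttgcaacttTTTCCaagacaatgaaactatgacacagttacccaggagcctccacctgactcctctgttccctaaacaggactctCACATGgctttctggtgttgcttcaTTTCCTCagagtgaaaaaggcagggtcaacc
The Ctsk window held 1 NFAT core and 2 PU.1 cores, the Acp5 window 2 NFAT cores and 1 CATGTG, the Slc9b2 window 1 NFAT core, and the Oscar window 4 NFAT cores, 2 PU.1 cores and 1 CATGTG. The other 2 Acp5 windows, not shown, held 1 NFAT core each and no CATGTG. In the Oscar window 1 NFAT core and 1 PU.1 core overlap. Among 32851 promoters of the same length, 61.3% held the NFAT core, 28.3% the PU.1 core, 14.2% CATGTG, 7.81% TGANTCA and 7.15% CACGTG, so such matches are common. TGANTCA and CACGTG were in none of these 4 windows.

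Genes that the rule did not use were tested in MYC spinal Rosini1232 and eRT Rosini1148, with osteoclasts and the compared cells of the same tumor as a pair (edgeR quasi-likelihood test, Benjamini-Hochberg adjusted p below 0.05, n = 2 tumors). Against all other cells, 3248 of 11255 genes (28.9%) were called, 1305 higher (11.6%) and 1943 lower (17.3%) in the osteoclasts. Without the TMM scaling factors the split was 906 higher and 2200 lower, and the median log2 fold change over all genes moved from -0.05 to -0.22. The second comparison was with C1q-high cells, cells rich in the complement genes of tissue macrophages and, as a condition of the gate, without any fusion gene. There were 1298 of them in MYC spinal Rosini1232 and 853 in eRT Rosini1148. Against them 3399 of 9997 genes (34.0%) were called, 1622 higher (16.2%) and 1777 lower (17.8%). Both comparisons use the same osteoclast sums. The tests rest on 2 tumors, and ignoring the pairing left 0 called genes against the other cells (2202 at an unadjusted p below 0.05; DESeq2 with pairing called 1952) and 770 against C1q-high cells. The compared cells were also shallower, with medians of 2768.5 and 4493 UMIs in the other cells against 4965 and 8175 in the osteoclasts. Compared only with other cells at least as deep as the lower quartile of the osteoclasts, 1615 of 10671 genes were called, 688 higher and 927 lower. Counts of listed genes at matched depth are to be read beside these. The part of depth in single genes was not tested otherwise. Smarcb1 itself stood at 30.6 against 29.5 CPM in MYC spinal Rosini1232 and at 42.5 against 65.6 CPM in eRT Rosini1148 and was not called (-0.12 ± 0.24, adjusted p = 0.758). Against C1q-high cells, at 54.1 and 72.6 CPM, it was called lower (-0.71 ± 0.16, adjusted p = 0.0135), a call lost with DESeq2 (-0.71, adjusted p = 0.106) and at matched depth (-0.44, adjusted p = 0.191). Whether its 3′ tags lie outside the removed part is not given in the sources used here, so this level does not check the deletion.

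Both osteoclast markers outside the rule were far higher. Acp5, the tartrate-resistant acid phosphatase used to stain osteoclasts, stood at 11127 CPM in the osteoclasts of MYC spinal Rosini1232 and 11469 CPM in those of eRT Rosini1148. It was at 1239 and 1871 CPM in the other cells, 531 and 766 CPM in C1q-high cells, and between 16.3 and 132 CPM outside osteoclasts in the remaining 4 tumors. Every osteoclast held at least 1 Acp5 UMI. The log2 fold change was 3.05 ± 0.20 (SE) against other cells (adjusted p = 8.72e-05) and 4.23 ± 0.18 against C1q-high cells (adjusted p = 2.3e-05). Mmp9, a gelatin-cleaving metalloprotease, stood at 3583 and 3275 CPM in osteoclasts and at 372 and 188 CPM in other cells (log2 fold change 3.86 ± 0.23, adjusted p = 8.23e-05). It was found in 98.9% and 97.7% of the osteoclasts and in 13.2% and 14.2% of C1q-high cells, whose median depths were 2306 and 4171 UMIs. Lymphocyte-gated cells held 217 and 37.1 CPM. The rule genes were high by choice, and of the osteoclast marker list Acp5 and Mmp9 alone were outside the rule.

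**Figure D2:**
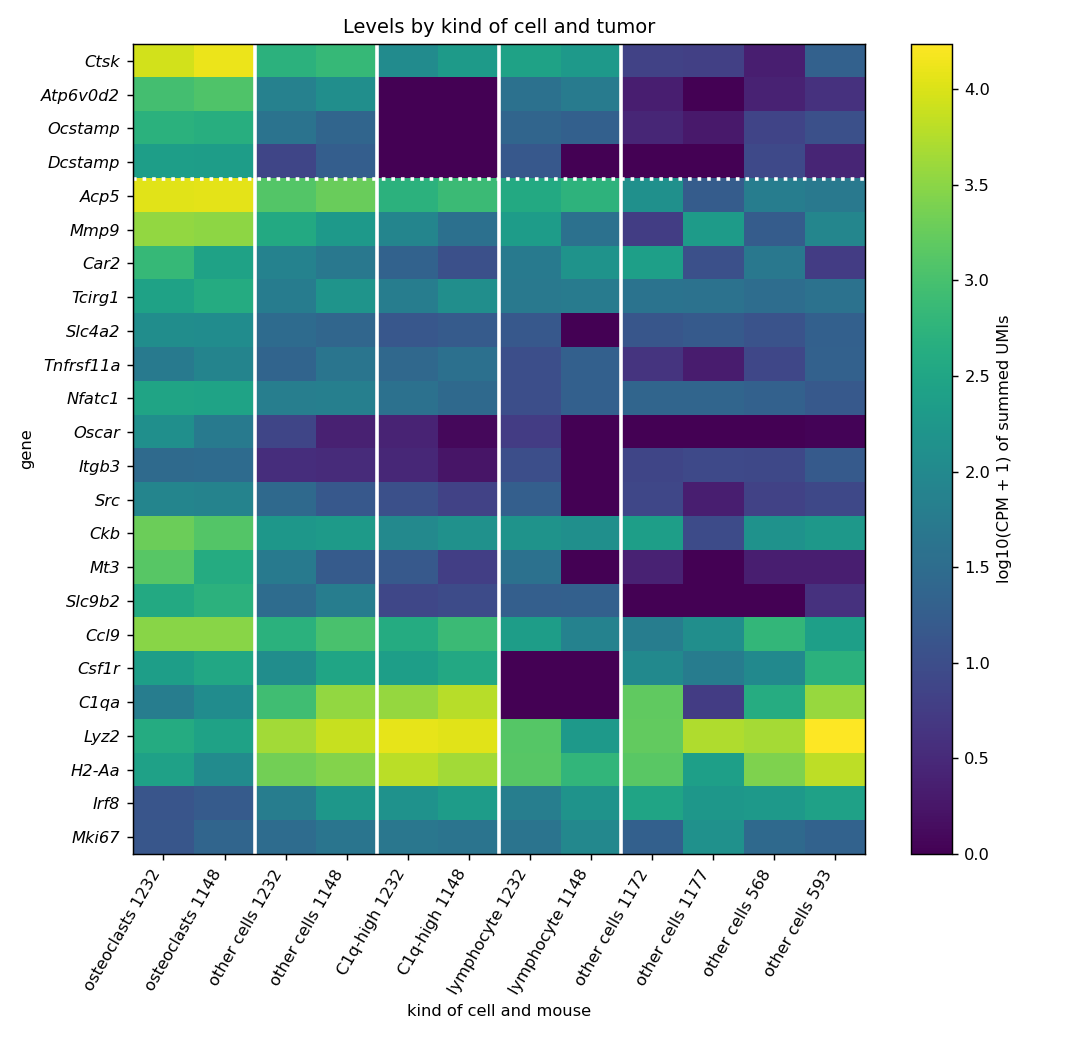
Levels of 24 genes, as log10(CPM + 1) of UMIs summed over each kind of cell, by mouse; the 4 genes above the dotted line chose the osteoclasts, and C1q-high cells lack the fusion genes by construction. Acp5 reaches 11127 and 11469 CPM in the osteoclasts, while C1qa, Lyz2 and H2-Aa are lower there than in the other cells and in C1q-high cells of the same tumor.

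Genes of acid secretion rose almost without exception. Of 21 tested genes of the proton pump, its accessory proteins, the chloride channel and the carbonic anhydrase, 19 were higher than in the other cells and 1 was lower, with a median log2 fold change of 1.88 against -0.05 over all genes tested. Against other cells of matched depth 17 of 21 were higher, and against C1q-high cells 17 of 20 were higher and 1 was lower. Car2, the carbonic anhydrase that supplies the protons, stood at 688 CPM in the osteoclasts and 73.1 CPM in the other cells of MYC spinal Rosini1232, and at 278 and 49.4 CPM in eRT Rosini1148 (log2 fold change 3.03 ± 0.23, adjusted p = 0.000126). Tcirg1, the pump's osteoclast-type a3 subunit, stood at 276 against 58.1 CPM and at 404 against 152 CPM (1.99 ± 0.24, adjusted p = 0.000615). Atp6v1a, the catalytic subunit, rose by 2.54 ± 0.18 on the log2 scale. The chloride-proton exchanger Clcn7 rose by 2.42 ± 0.26, its partner Ostm1 by 1.16 ± 0.22 and the bicarbonate exchanger Slc4a2 by 2.30 ± 0.19. The gene that fell was Atp6v0a1, which encodes another form of the a subunit, with 3.46 against 10.5 CPM and 4.85 against 19.2 CPM (-1.62 ± 0.30, adjusted p = 0.0042). Its call was lost against other cells of matched depth (adjusted p = 0.0628) and held against C1q-high cells (-2.36 ± 0.26). A further form, Atp6v0a2, was not called (0.52 ± 0.27).

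Mitochondrial and energy genes formed the other list that rose nearly as a whole. Of 21 tested genes, 20 were higher than in the other cells and 1, the glucose transporter Slc2a1, was lower (-1.02 ± 0.22, with a call lost at matched depth at a fold of -1.06, adjusted p = 0.0659). The median log2 fold change of the list was 1.17. Against C1q-high cells 20 of 21 were higher, and 17 of 21 against other cells of matched depth. With the 3 osteoclasts of eRT Soxertini593 added, 7 of 21 were higher than in the other cells (median 0.94) and 13 of 21 higher than in C1q-high cells (median 0.94). Ckb, the creatine kinase that buffers ATP, stood at 1918 against 173 CPM in MYC spinal Rosini1232 and at 1248 against 200.2 CPM in eRT Rosini1148 (3.22 ± 0.24, adjusted p = 0.000119). Cycs (cytochrome c) rose by 1.44 ± 0.20, Idh3a of the citric acid cycle by 1.54 ± 0.18 and Sdha of respiratory complex II by 1.27 ± 0.18. Ppargc1b, a coactivator of mitochondrial genes, rose by 2.67 ± 0.21 and its partner Esrra by 1.36 ± 0.24. The median share of mitochondrial UMIs per cell was 2.24% and 2.53% in osteoclasts, against 1.58% and 1.86% in the other cells.

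The list of RANK signaling and its transcription factors held 23 tested genes. Of these, 13 were higher than in the other cells and 5 lower (11.6% and 17.3% of all genes tested), with a median log2 fold change of 0.99. Tnfrsf11a (RANK) stood at 54.1 against 21.8 CPM in MYC spinal Rosini1232 and at 81.5 against 42.7 CPM in eRT Rosini1148 (1.29 ± 0.21, adjusted p = 0.00253). In the 4 other tumors it was at 1.08 to 19.4 CPM. Nfatc1, the central osteoclast factor, stood at 294 against 63.4 CPM and at 288 against 65.0 CPM (2.34 ± 0.18, adjusted p = 0.000121). Prdm1, which represses the inhibitors of Nfatc1, rose by 1.96 ± 0.20, the adaptor Traf6 by 1.24 ± 0.25, the kinase Src by 2.22 ± 0.24, Jdp2 by 2.23 ± 0.26 and Mitf by 1.65 ± 0.20. Jun fell by 1.03 on the log2 scale (SE 0.17), with a call lost at matched depth (adjusted p = 0.0627). The other genes that were lower were Fosl1 (-2.87 ± 0.42), Hivep3 (-2.63 ± 0.44), Map3k14 (-1.13 ± 0.37) and Junb (-0.59 ± 0.17). Csf1r, the M-CSF receptor, stood at 232 against 118 CPM in MYC spinal Rosini1232 and at 351 against 305 CPM in eRT Rosini1148 (0.75 ± 0.22, adjusted p = 0.0354). Beside the fit without the replicate block, this call was lost in 6 alternatives, with adjusted p from 0.051 to 0.371, DESeq2 among them (adjusted p = 0.0603). The fold was 0.59 without TMM factors, 0.51 with eRT Soxertini593 added and 1.31 at matched depth. Against C1q-high cells, at 234 and 361 CPM, Csf1r was not called (0.06 ± 0.13, adjusted p = 0.75). From the same list, 12 of 22 tested genes were higher than in C1q-high cells and 6 lower (16.2% and 17.8% of all genes tested).

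On the list of costimulatory receptors, adaptors and signaling proteins, which also holds Calcr, 6 of 12 tested genes were higher than in the other cells and 2 lower. Of all genes tested, 11.6% were higher and 17.3% lower. Against C1q-high cells 3 were higher and 3 lower, beside 16.2% and 17.8% of all genes. The 3 higher ones were Oscar, Siglec15 and Calcr. With DESeq2 the calls of Siglec15 (adjusted p = 0.239) and Calcr (adjusted p = 0.303) against C1q-high cells were lost. Oscar, a collagen-binding receptor, stood at 128 CPM in the osteoclasts of MYC spinal Rosini1232 and 53.4 CPM in those of eRT Rosini1148, against 6.70 and 1.43 CPM in the other cells (4.75 ± 0.28, adjusted p = 8.23e-05). Outside these tumors it was at 0 in 3 tumors and at 0.0927 CPM in the other cells of eRT Soxertini593. Siglec15, a receptor of multinucleated osteoclasts, was sparse, with 5.72 and 14.1 CPM in the osteoclasts against 0.321 and 0.957 CPM (4.13 ± 0.42, adjusted p = 0.000337). Calcr, the calcitonin receptor of mature osteoclasts, reached only 5.05 and 4.16 CPM and was found in 2.55% and 2.54% of the cells and in no C1q-high cell (2.74 ± 0.73, adjusted p = 0.0223). Its call was lost, at folds close to the main one, at matched depth (2.55, adjusted p = 0.0754), without TMM factors (2.57, adjusted p = 0.0513) and without other cells near the rule (2.59, adjusted p = 0.0703).

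Genes of fusion and attachment were mixed. Of 13 tested fusion genes beside those of the rule, 6 were higher and 4 lower than in the other cells (11.6% and 17.3% of all genes tested). The tetraspanin Cd81 fell from 399 to 44.5 CPM in MYC spinal Rosini1232 and from 360 to 30.9 CPM in eRT Rosini1148 (-3.18 ± 0.20, adjusted p = 8.23e-05), and the filopodial motor Myo10 rose by 1.39 ± 0.22. Of 20 tested genes of the sealing zone, 6 were higher and 1 was lower, and 13 were not called. Those that rose included both chains of the vitronectin receptor: Itgb3, at 28.3 against 2.62 CPM and 29.6 against 2.27 CPM (3.71 ± 0.28, adjusted p = 0.000119), and Itgav (1.40 ± 0.22). The median over the sealing zone list was 0.25.

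Genes for the breakdown of matrix split by enzyme. Of 12 tested, 3 were higher (Acp5, Mmp9 and Mmp14) and 5 lower than in the other cells (11.6% and 17.3% of all genes tested). Of those 5, 2 stayed called at matched depth. Mmp14, a membrane-bound collagenase, stood at 331 against 129 CPM and at 424 against 191 CPM (1.42 ± 0.18, adjusted p = 0.000708). Some lysosomal proteases went the other way, while Ctsa, Ctsd and Ctsz were not called in either comparison. Ctss stood at 194 CPM in osteoclasts and 1654 CPM in C1q-high cells of MYC spinal Rosini1232, and at 951 and 4156 CPM in eRT Rosini1148 (-2.52 ± 0.23, adjusted p = 0.00033). Lgmn fell by 3.12 on the log2 scale against C1q-high cells (SE 0.14). Against other cells of matched depth, neither was called (adjusted p = 0.181 for Ctss and 0.0843 for Lgmn).

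Of 15 tested genes of vesicle traffic and lysosomes, 7 were higher and 5 lower than in the other cells (11.6% and 17.3% of all genes tested). Snx10, a sorting nexin needed for bone resorption, stood at 394 against 53.8 CPM and at 489 against 95.8 CPM (2.78 ± 0.21, adjusted p = 0.000118). Plekhm1, which tethers secretory lysosomes, rose by 2.35 ± 0.29 and the small GTPase Rab38 by 3.42 ± 0.25. Lamp1 fell by 1.21 and Lamp2 by 1.92 on the log2 scale (SE 0.20 and 0.19). Rab38 was higher and Lamp2 lower in both tumors.

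**Figure D3:**
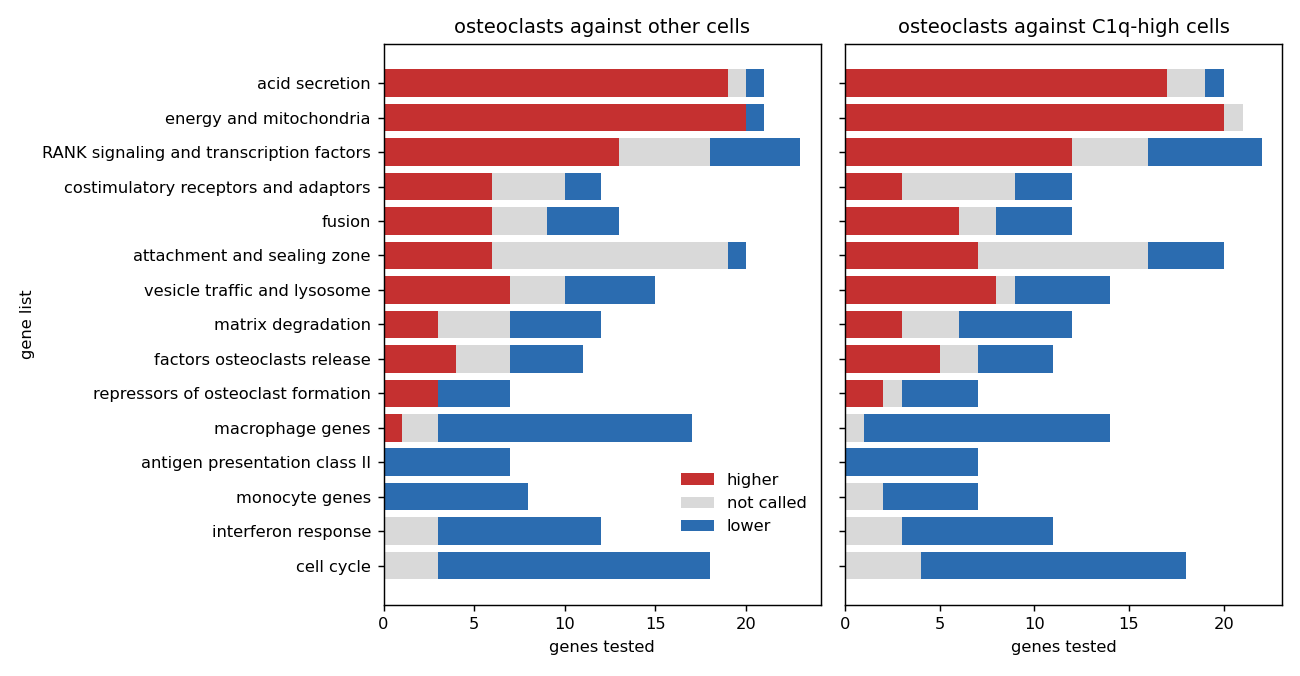
Number of tested genes in 15 lists that were higher (red), lower (blue) or not called (grey) in osteoclasts, against the other cells (left) and C1q-high cells (right) of the same 2 tumors. Acid secretion (19 of 21 higher) and energy genes (20 of 21) are nearly all red on the left, and class II genes (7 of 7 lower) all blue.

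Among 11 tested factors that osteoclasts are known to release, 4 were higher and 4 lower than in the other cells (11.6% and 17.3% of all genes tested). Ccl9, a chemokine of osteoclasts, was the most abundant at 3041 CPM in MYC spinal Rosini1232 and 3014 CPM in eRT Rosini1148, against 514 and 1054 CPM in the other cells (2.20 ± 0.26, adjusted p = 0.000607). Sema4d, which acts on osteoblasts, rose by 1.35 ± 0.20, Pdgfb by 1.48 ± 0.23 and Sphk1, which makes sphingosine-1-phosphate, by 2.94 ± 0.43. The 4 lower ones were Ctf1 (-3.61 ± 1.14), Cthrc1 (-3.13 ± 0.28), C3 (-3.03 ± 0.43) and Tgfb1 (-1.32 ± 0.20). Spp1 (osteopontin) stood at 398 against 486 CPM and at 1347 against 2805 CPM and was not called (-0.51 ± 0.22, adjusted p = 0.116). It was lower than in C1q-high cells (-1.02 ± 0.13, adjusted p = 0.00134).

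Of 12 listed genes for signals that drive osteoclast formation, only 5 could be tested against the other cells. Of these, 4 were lower in the osteoclasts (17.3% of all genes tested) and 1 was not called. Tnfsf11 (RANKL) stood at 1.86 CPM in the osteoclasts and 19.1 CPM in the other cells of MYC spinal Rosini1232, where 4.22% of the other cells held a UMI (log2 fold change over both tumors -3.17 ± 0.47, adjusted p = 0.00153). In eRT Rosini1148 it was at 0 in the osteoclasts and at 0.359 CPM in the other cells, with a UMI in 0.184% of them. Over all kept cells Tnfsf11 was at 22.1 CPM in MYC spinal Rosini1172, a tumor with no osteoclast, and at 0.236 CPM in eRT Rosini1148, the tumor with the highest share. In MYC spinal Rosini1232, the other tumor rich in osteoclasts, Tnfsf11 was at 19.1 CPM in the cells outside the rule. The part of Tnfsf11 in the presence of osteoclasts was not tested. Csf1 (M-CSF) was at 38.6 CPM in MYC spinal Rosini1232 and 6.15 CPM in eRT Rosini1148 over all kept cells, and highest in eRT Soxertini593, at 216 CPM. Tnfrsf11b, the RANKL decoy, was at 0 in both osteoclast-rich tumors.

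Genes of macrophages and of antigen presentation fell. Against C1q-high cells 13 of 14 tested macrophage genes were lower, with a median log2 fold change of -4.04, and against all other cells 14 of 17 were lower (9 of 16 at matched depth) and 1, Csf1r, was higher. Lyz2 (lysozyme) stood at 409 CPM in the osteoclasts and 11862 CPM in the C1q-high cells of MYC spinal Rosini1232, and at 276 and 10967 CPM in eRT Rosini1148 (-4.99 ± 0.18, adjusted p = 1.72e-05). Apoe fell by 3.52 and Adgre1 (F4/80) by 5.03 on the log2 scale (SE 0.13 and 0.25). All 7 class II genes were lower in both comparisons (4 of 7 at matched depth against other cells). H2-Aa stood at 259 against 6258 CPM and at 111 against 4398 CPM (-4.85 ± 0.22, adjusted p = 2.7e-05).

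Monocyte and interferon genes were lower too. Of 8 monocyte genes 8 were lower than in the other cells, and 5 of 7 were lower than in C1q-high cells. At matched depth 2 of 7 were lower than in the other cells, beside 927 of all 10671 genes tested. Ccr2 stood at 7.18 CPM in the osteoclasts and 91.1 CPM in C1q-high cells of MYC spinal Rosini1232, and at 3.23 and 192.7 CPM in eRT Rosini1148 (-4.45 ± 0.45, adjusted p = 0.000516). Of 12 interferon-response genes 9 were lower than in the other cells (5 of 11 at matched depth). The chemokine Cxcl10 fell by 3.74 on the log2 scale against C1q-high cells (SE 0.42).

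Repressors of osteoclast formation split. Of 7 tested, 4 were lower and 3 higher than in the other cells (17.3% and 11.6% of all genes tested). Against C1q-high cells 4 were lower and 2 higher (17.8% and 16.2% of all genes). Those lower in both comparisons were Irf8, Id2, Id3 and Lilrb4a. Irf8, which blocks Nfatc1, stood at 12.2 CPM in the osteoclasts and 144 CPM in the C1q-high cells of MYC spinal Rosini1232, and at 15.5 and 219 CPM in eRT Rosini1148 (-3.59 ± 0.18, adjusted p = 3.53e-05). At matched depth 1 of the 4, Id3, stayed lower than in the other cells. In the opposite direction, the 3 repressors higher than in the other cells were Nfkbia (1.25 ± 0.17), Tnfaip3 (0.93 ± 0.22) and Cyld (0.91 ± 0.24). Of these 3, Nfkbia (1.22 ± 0.14) and Cyld (0.79 ± 0.22) were also higher than in C1q-high cells.

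Among called genes whose average log2 CPM was 5 or more, the 10 with the largest rise against the other cells were Mt3, Oscar, Rufy4, Cfap45, Mmp9, Fam109a, Kbtbd11, Slc9b2, Fam102a and Cd200, and all but Fam109a were also among the 10 with the largest rise against C1q-high cells, where Car2 took its place. Mt3, a metallothionein that binds zinc and copper, stood at 1348 against 53.4 CPM in MYC spinal Rosini1232 and at 408 against 15.5 CPM in eRT Rosini1148 (4.85 ± 0.19, adjusted p = 2.27e-05). It was detected in 66.7% and 45.1% of the osteoclasts, in 3.70% and 2.34% of C1q-high cells, and was at 0 to 1.56 CPM outside osteoclasts in the remaining 4 tumors. Slc9b2, a sodium-proton exchanger, stood at 369 against 30.4 CPM and at 532 against 62.5 CPM (3.51 ± 0.21). Outside these tumors it was at 0 in 3 of the 4 and at 2.97 CPM in the other cells of eRT Soxertini593, while the 3 osteoclasts of eRT Soxertini593 held 11, 6 and 1 UMIs. Kbtbd11 differed in level between the tumors, with 54.9 CPM in the osteoclasts of MYC spinal Rosini1232 and 238 CPM in those of eRT Rosini1148, but rose in each (log2 fold changes 3.45 and 3.88). Cd200, a ligand that restrains myeloid cells, stood at 318 against 44.0 CPM and at 296 against 27.3 CPM.

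With the same minimum level, the 10 genes with the largest fall against the other cells were Ccl12, C5ar1, Ly86, C1qa, Ccl7, Cx3cr1, Gzmb, C1qb, Pld4 and Sirpb1c. Gzmb is a granzyme of cytotoxic lymphocytes and was high in lymphocyte-gated cells (249 and 743 CPM), and the others are known mainly from myeloid cells. Ccl12, a monocyte-attracting chemokine, stood at 6.91 against 133 CPM in MYC spinal Rosini1232 and at 26.8 against 956 CPM in eRT Rosini1148 (-4.59 ± 0.27, adjusted p = 8.23e-05). Against C1q-high cells the list held Ccl12, Ly86, Cx3cr1, C5ar1, Scimp, Tmem176a, Tmem176b, Pld4, P2ry6 and Lyz1. Cx3cr1, the fractalkine receptor, was at 2.53 and 5.77 CPM in osteoclasts, and at 145 and 232 CPM in C1q-high cells (-5.47 ± 0.21).

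**Figure D4:**
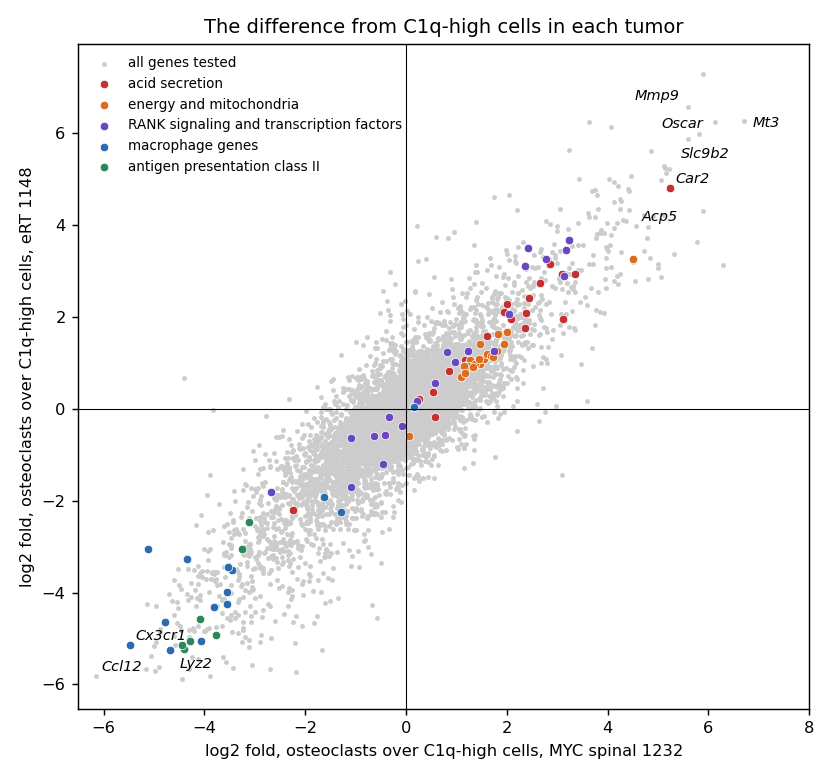
Log2 fold of osteoclasts over C1q-high cells in MYC spinal Rosini1232 (horizontal) and eRT Rosini1148 (vertical), 1 point per tested gene, with 5 lists in color; folds come from each tumor alone with a prior count of 2 and carry no test. Mt3 (6.70 and 6.26) and Slc9b2 (5.82 and 5.97) lie at the upper right and Ccl12 (-6.15 and -5.82) at the lower left.

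Cell cycle genes were lower in the osteoclasts. Of 18 on the list, which includes the inhibitors Cdkn1a and Cdkn1b, 15 were lower than in the other cells and 3 were not called (16 of 18 lower at matched depth), and 14 of 18 were lower than in C1q-high cells. Ccnd1, which drives entry into S phase, stood at 65.4 against 448 CPM and at 18.5 against 165 CPM (-2.78 ± 0.20, adjusted p = 0.000114). Cdkn1a, an inhibitor of cyclin-dependent kinases, was among the 15 (-2.19 ± 0.18, adjusted p = 0.000143), and Cdkn1b among the 3 not called (0.26 ± 0.27, adjusted p = 0.528). Cells with at least 2 of 8 mitotic genes detected made up 16.7% of the osteoclasts of MYC spinal Rosini1232 and 21.1% of those of eRT Rosini1148, against 27.1% and 29.1% of the other cells. With every cell thinned to 1000 UMIs these shares were 4.74% and 7.03% in osteoclasts and 10.6% and 11.0% in the other cells.

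The osteoclasts that did hold mitotic genes, 236 in MYC spinal Rosini1232 and 108 in eRT Rosini1148, carried less of the osteoclast genes than the rest. Ctsk stood at 5626 against 9454 CPM in MYC spinal Rosini1232 and at 7532 against 15060 CPM in eRT Rosini1148. Acp5 was at 7171 against 12120 CPM and at 7835 against 12769 CPM, and Ckb at 846 against 2187 CPM and at 640 against 1466 CPM. Itgb3 stood at 11.9 against 32.4 CPM and at 3.51 against 38.9 CPM. Nfatc1 was close in both, at 264 against 302 CPM and at 268 against 295 CPM. Their median depth was higher, 5996 against 4795 UMIs and 9817 against 7763 UMIs. They were also more often among the highest Scrublet scores: 16.9% against 7.05% in MYC spinal Rosini1232 and 3.70% against 0.743% in eRT Rosini1148. Their part in the lower osteoclast genes was not tested.

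**Figure D5:**
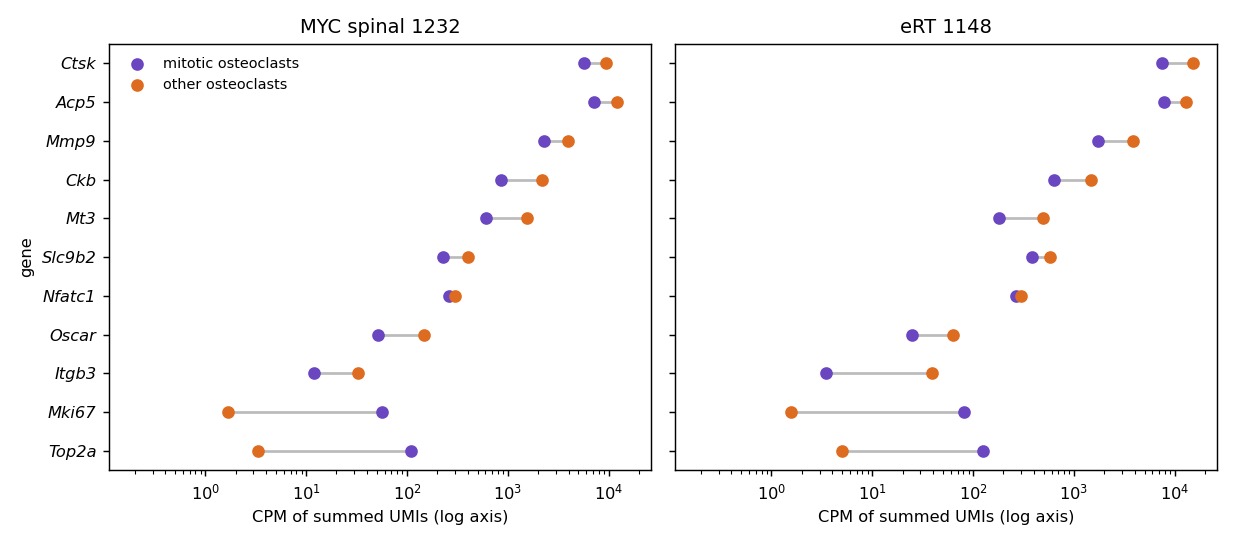
CPM of 11 genes (log axis) in osteoclasts with at least 2 mitotic genes (purple) and in the remaining osteoclasts (orange), for MYC spinal Rosini1232 (236 and 1178 cells) and eRT Rosini1148 (108 and 404 cells). Ctsk, Acp5, Ckb and Itgb3 are lower in the mitotic cells of both tumors, while Nfatc1 is nearly level.

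C1q transcripts were found in part of the osteoclasts, in 24.9% of those of MYC spinal Rosini1232 and 75.8% of those of eRT Rosini1148. The osteoclasts with a C1q UMI had 7896 CPM of Ctsk in MYC spinal Rosini1232, against 8993 CPM in those without, and 12776 against 14214 CPM in eRT Rosini1148. Their C1qa level was 221 and 146 CPM, against 3674 and 5965 CPM in C1q-high cells. In MYC spinal Rosini1232, 19.0% of the osteoclasts with a C1q UMI were among the highest Scrublet scores, against 5.27% of those without. In eRT Rosini1148 the values were 1.55% and 0.806%. The part of doublets and of free RNA in these UMIs was not tested.

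Markers of other lineages were mostly lower than in the other cells. The summed level of 10 neutrophil genes was 718 CPM in the osteoclasts of MYC spinal Rosini1232 and 145 CPM in those of eRT Rosini1148, against 6327 and 648 CPM in the other cells and 4329 and 149 CPM in lymphocyte-gated cells. S100a8 alone stood at 302 and 52.2 CPM. The T and NK cell list summed to 26.3 and 12.0 CPM against 131 and 234 CPM in the other cells. The fibroblast and stroma list summed to 106 and 12.0 CPM against 1055 and 184 CPM. Of 8 tested genes of this list 6 were lower than in the other cells. Dcn, a small proteoglycan of stroma, was called higher than in C1q-high cells (adjusted p = 0.00462), which held 1 Dcn UMI between them in the 2 tumors. It stood at 3.19 and 4.39 CPM in the osteoclasts, 0 and 0.255 CPM in C1q-high cells and 3.70 and 11.8 CPM in the other cells, where it was not called (-0.66 ± 0.40, adjusted p = 0.263). The erythroid and megakaryocyte list went the other way in eRT Rosini1148, with 262 CPM in the osteoclasts and 187 CPM in the other cells. In MYC spinal Rosini1232 it summed to 3.72 against 22.2 CPM. None of its 4 tested hemoglobin genes was called against the other cells, and 3 of them were higher than in C1q-high cells. Hbb-bs stood at 155 against 78.3 CPM in eRT Rosini1148, but at 0.133 against 0 CPM in MYC spinal Rosini1232 (1.06 ± 0.22, adjusted p = 0.0108). This call was lost with DESeq2 (adjusted p = 0.0775), and the level rests on eRT Rosini1148.

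Late genes of bone-forming cells were at or near 0 beside the osteoclasts, while earlier factors of the bone and cartilage lineage were found at low levels. Over all kept cells of MYC spinal Rosini1232 and eRT Rosini1148, Sp7, Ibsp and Dmp1, genes of osteoblasts and osteocytes, were at 0. Alpl was at 0.267 CPM in MYC spinal Rosini1232 and 0 in eRT Rosini1148. Runx2 stood at 5.19 and 2.05 CPM and Sox9 at 7.75 and 1.42 CPM over all kept cells of the 2 tumors, and both were lower in the osteoclasts than in the other cells (-1.67 ± 0.45, adjusted p = 0.0239, and -4.28 ± 0.61, adjusted p = 0.00134). The call of Runx2 was lost in 4 alternatives beside the fit without the block, with DESeq2 (-1.68, adjusted p = 0.233) and at matched depth (-1.59, adjusted p = 0.095) among them. Ibsp was highest in MYC spinal Rosini1177, at 8.62 CPM, in which no osteoclast was found.

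Whether the osteoclasts of eRT differ from those of MYC spinal tumors could not be tested, since each subtype had 1 tumor with at least 10 of them. Side by side, the osteoclasts of eRT Rosini1148 held more Ctsk (13077 against 8686 CPM) and those of MYC spinal Rosini1232 more Mt3 (1348 against 408 CPM), Car2 (688 against 278 CPM) and Oscar (128 against 53.4 CPM). Apoe was at 769 CPM in eRT Rosini1148 and 311 CPM in MYC spinal Rosini1232, and Spp1 at 1347 and 398 CPM. The other cells of these tumors differed in the same direction for Apoe (5831 and 1053 CPM) and Spp1 (2805 and 486 CPM). The same held for Ctsk (677 and 531 CPM), Mt3 (15.5 and 53.4 CPM), Oscar (1.43 and 6.70 CPM) and Car2, with eRT Rosini1148 given first. Subtype, tumor site, mouse and library cannot be told apart here.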

How the data were processed

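The authors deposited, for each tumor, a table of raw UMI counts, with genes as lines and cells as columns, from 10x Genomics 3′ libraries of sorted viable cells aligned to mm10 with Cell Ranger 2.0.2 (per the labels). Kept cells held 3841706 to 26184224 UMIs per tumor, and their number and depth set the precision. Samples were grouped by the tumor type in their labels, and per-sample columns not used number 0. UMIs were summed per tumor over osteoclasts, over all other cells and over C1q-high cells (at least 5 UMIs of C1qa, C1qb and C1qc, at least 2 of them detected, Ctsk under 5 UMIs, no fusion gene). Sums of tumors with at least 10 osteoclasts were tested with edgeR 4.0.16 (R 4.3.3) as a quasi-likelihood test with TMM factors, filterByExpr and the tumor as block, since both sums come from the same animal. Benjamini-Hochberg adjusted p below 0.05 counted as called, and the 4 rule genes, and C1qa, C1qb and C1qc against C1q-high cells, got no call. The share of osteoclasts was compared with an exact permutation test. Genes named were those of fixed lists and, per comparison and direction, the 10 with the largest fold among called genes that moved the same way in both tumors at a mean log2 CPM of at least 5, without ribosomal protein, mitochondrial and predicted genes. The members, lists and tests were chosen with earlier results of these data known. Scripts were tested on simulated data. Alternatives included DESeq2 1.42.0, other filters, depth matching and leaving out tumors. Other tools were Python 3.11.15, scanpy 1.11.5 and scipy 1.17.1, and gene positions came from GENCODE vM21 (GRCm38). A gene of a list is not reported here and was left out of that list's counts.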

Additional observations from a re-analysis of the deposited data

How the results depend on the processing

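The count of genes called against the other cells, 3248, moved to 1952 with DESeq2, to 0 without the replicate block and to 1615 with other cells of matched depth. Against C1q-high cells it moved from 3399 to 1918 with DESeq2 and to 770 without the block. The pairing rests on both sums coming from the same tumor. The other alternatives gave 2557 to 3671 and 2535 to 4203 called genes. Leaving out a tumor leaves 1 pair with no residual degrees of freedom, so no count was made. The difference in share between eRT and MYC spinal tumors ranged from -6.96 to 7.99 percentage points with 1 tumor left out. Under the other settings it ranged from 0.462 to 1.27. S100a8, lower than in C1q-high cells, turned to 0.79 at matched depth. Csf1r against C1q-high cells turned to -0.028 without TMM factors and to -0.16 with eRT Soxertini593 added, a setting chosen after seeing the data. Against other cells, Smarcb1 and Dcn, not called, turned to 0.31 and 0.0035 at matched depth, and Ctsd to -0.16 with eRT Soxertini593 added. Against C1q-high cells, where none of them was called, Ctsa turned to 3.92e-05 with at least 10 Ctsk UMIs, 0.016 with all 3 fusion genes, 0.44 at matched depth and 0.12 without mitotic cells, Ctsd to -0.028 without TMM factors and -0.38 with eRT Soxertini593 added, and Ctsz to 0.063 at matched depth. The cause was not tested. The planned tests between subtypes could not be run with 1 osteoclast-rich tumor in each. Scrublet's own calls were too few to use, and depth limits the finding of osteoclasts in the shallow tumors.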
